A study of Mus musculus with 1152 samples.

Results

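The genes described here were 9 genes for proteins of endothelial cell-cell junctions looked up by symbol: the claudins Cldn5 and Cldn11, the cadherin Cdh5, the immunoglobulin-like adhesion molecules Pecam1, Esam, Jam2, Jam3 and F11r, and the scaffold Tjp1. All 9 were among the 23168 genes measured, and 8 of them were taken as junction genes that endothelial cells share, against Cldn11, which the study used as a marker of lymphatic valves. The cells came from the nasopharyngeal lymphatic plexus (NPLP), a network of lymphatic vessels in the mucosa of the nasopharynx, of aged mice of strain c57bl/6, and were its lymphatic endothelial cells (LECs). Single cells positive for CD31 and podoplanin (PDPN) had been sorted by flow cytometry from mucosa pooled over mice of both sexes, for which the labels name no transgene or treatment, and their RNA was sequenced cell by cell with Smart-seq3, which reads along the whole transcript and handles each cell in a well of its own. Of the 1152 cells labelled, 656 were analysed. They formed a single group and the labels did not say which mouse a cell came from, so they were 1 pooled sample, no test was possible, and no p-value is given. Intervals are exact (Clopper-Pearson) 95% intervals for shares of cells and cover counting error only.

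Endothelial cells are held together by adherens junctions, built on the cadherin VE-cadherin, and by tight junctions, built on claudins and on immunoglobulin-like adhesion molecules that bind scaffold proteins inside the cell. In the initial lymphatics these proteins are arranged in separate buttons that leave openings through which fluid enters, and in collecting lymphatics in continuous zippers. Claudin-5 is the main endothelial claudin, whereas claudin-11 is best known from myelin and from the Sertoli cells of the testis.

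Both claudin genes were located in GRCm38, the assembly also called mm10. Cldn5 (ENSMUSG00000041378.2) lay at chr16:18776847-18778262 on the plus strand and had a single exon of 1416 bases. Cldn11 (ENSMUSG00000037625.7) lay at chr3:31149920-31164324 on the plus strand, with 3 exons and 1870 exonic bases. The 250 bases before the start of each gene are shown because these genes were the claudins with by far the most reads and because their levels were spread over the cells in different ways. They were taken from RefSeq (GRCm38.p6), at chr16:18776597-18776846 for Cldn5 and chr3:31149670-31149919 for Cldn11, both on the plus strand, and are noncoding and outside the annotated exons. Capitals mark matches, on either strand, to CCAAT (the CCAAT box) and to GGGCGG (an SP1 motif).
Cldn5: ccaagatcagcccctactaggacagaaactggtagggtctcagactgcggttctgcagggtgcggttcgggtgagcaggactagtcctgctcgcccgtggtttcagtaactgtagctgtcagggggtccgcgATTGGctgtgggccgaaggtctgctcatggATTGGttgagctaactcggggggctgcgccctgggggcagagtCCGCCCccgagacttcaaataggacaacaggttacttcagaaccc
Cldn11: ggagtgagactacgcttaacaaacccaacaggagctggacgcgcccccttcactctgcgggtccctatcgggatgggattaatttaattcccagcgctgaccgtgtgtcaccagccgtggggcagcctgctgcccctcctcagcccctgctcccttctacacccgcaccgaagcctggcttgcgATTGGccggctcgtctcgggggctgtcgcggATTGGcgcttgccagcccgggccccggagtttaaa
The window before Cldn5 held 2 CCAAT matches, with first bases at -118 and -88 from the gene start, and 1 GGGCGG match, with its first base at -45. That before Cldn11 held 2 CCAAT matches, at -66 and -35, and no GGGCGG match. Over 32851 promoter windows of this length, 33.8% held CCAAT and 32.7% held GGGCGG on either strand. Neither window held the FOX motif TGTTTAC, found in 3.17% of all windows, the GATA motif, whose letters are AGATAA, found in 9.99%, the NFAT motif GGAAAA, found in 20.4%, or the TATA box motif, whose letters are TATAAA, found in 12.4%. The CCAAT letters were added after the sequences were seen. GC content was 59.6% before Cldn5 and 63.6% before Cldn11. Windows were found for 4 of the 9 genes, the others being Tjp1 and F11r.

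Depth differed widely between cells, from 7046 to 10727631 reads with a median of 148202.5, and 2006 to 7679 genes were detected per cell. As to the labelled cell type, shares for 8 LEC identity genes ran from 87.7 to 100% of cells, with Prox1, the transcription factor that specifies LECs, in 97.1%. The list includes Pdpn (94.8%), whose protein was a gate of the sort, and Cdh5 (96.8%), itself a junction gene described here. The shares of Pdpn and Cdh5 are thus no separate check of the cell type. Of the epithelial markers, Epcam and Krt18 were detected in no cell, which allows a share of up to 0.457% (3 cells), and Krt8 in 0.610%. Haematopoietic markers had a median share of 2.13%, with Ptprc at 0.915% but Cd68 at 12.8%, Fcer1g at 9.60% and Lyz2 at 5.79%. The median shares of platelet, fibroblast, mural, glial and arachnoid barrier markers lay between 0.610% and 2.44%, although Dcn of the fibroblast list was detected in 30.03%. The blood endothelial list was mixed, with a median of 50.7%: Flt1 was detected in 2.44% and Ackr1 in 1.98%, but Emcn in 96.2%, Aqp1 in 96.04%, Plvap in 65.9% and Cd34 in 35.5%. Although the methods give mice of both sexes, Xist was detected in 92.8% of cells, Kdm5d, Uty and Eif2s3y in no cell, and Ddx3y in 4 cells, all of which also held Xist.

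The first question was how widely each junction gene was transcribed. Cldn5, Pecam1, F11r and Cdh5 were detected in almost every cell, Tjp1 in most, Cldn11 and Esam in 58.2% and 50.2% of cells, Jam3 in a minority and Jam2 in hardly any. Any read of a gene in a cell counted as detection. Values in single cells are natural logs of 1 plus reads per 10000 (ln values).

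Cldn5 was detected in all 656 cells, as were 43 of all genes measured (0.186%). Its ln values ranged from 0.12 through a median of 3.43 to 5.001, and 93.8% of cells lay above 2. The mean ln value was 3.32, rank 21 among all genes. With every cell thinned to 20000 reads, for which 568 cells were deep enough and 88 were too shallow, Cldn5 was still detected in 99.1% (98.0 to 99.7%).

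Cldn11 ranged from no read in 274 cells (41.8%) to an ln value of 3.81, with a median of 0.06. A read was found in 382 cells, or 58.2% (54.4 to 62.0%), and in 43.5% (39.4 to 47.7%) after thinning. Cells were spread over the whole range rather than gathered at a level: 27.6% lay above 0 and up to 1, 21.2% above 1 and up to 2, and 9.45% above 2. Of the positive cells, 8 (2.09%) held 1 read, and the median was 17 reads. PCR copies were not collapsed, so these reads do not tell how many molecules a cell held, and stray reads were not tested for. The highest 10% of cells held 56.5% of all Cldn11 level summed over cells on the linear scale, against 24.2% for Cldn5.

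**Figure D1:**
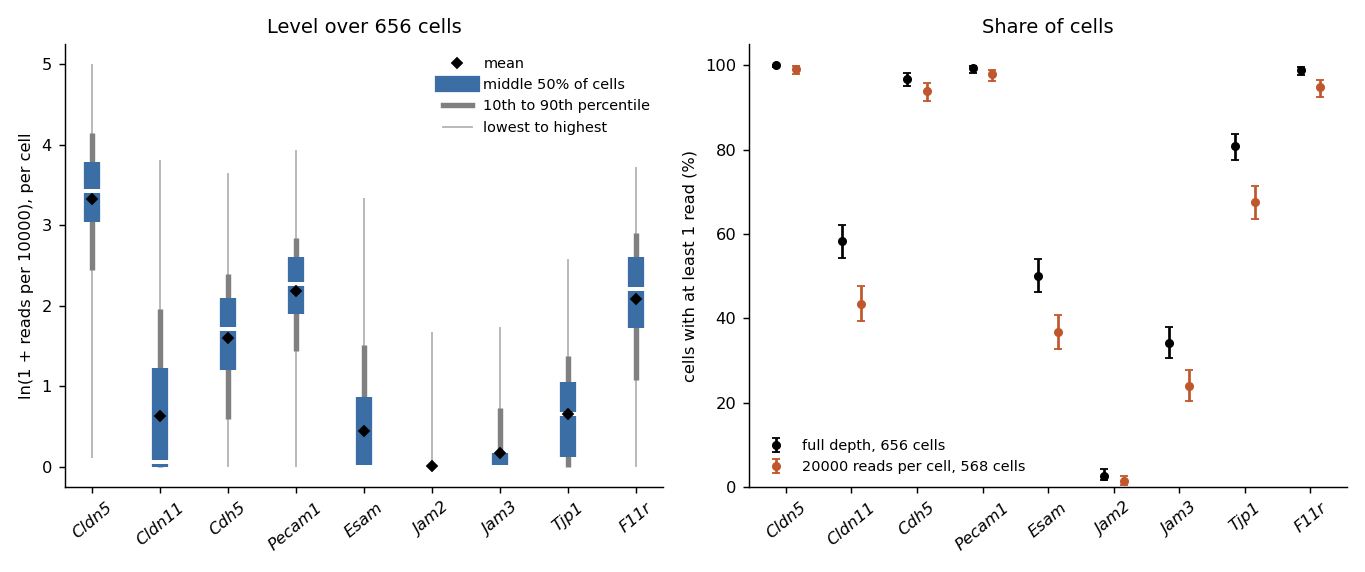
Left, ln(1 + reads per 10000) of each gene over 656 cells, with the middle 50% of cells as bars, the median as a white bar, the 10th to 90th percentile as thick lines, the full range as thin lines and the mean as diamonds. Right, the share of cells with at least 1 read at full depth (black) and at 20000 reads per cell (orange), with exact 95% intervals. Cldn5 sat highest, at a median of 3.43, and Cldn11 and Esam stretched from no read to above 3.

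Among the adherens and contact proteins, Cdh5 encodes VE-cadherin, the endothelial cadherin. Its ln values ran from 0 through a median of 1.71 to 3.65, and it was detected in 96.8% of cells (95.2 to 98.0%) and in 93.8% after thinning. The 21 cells without a Cdh5 read were shallow, with a median of 13842 reads against 160968 in the cells that had one. Pecam1 encodes CD31, a homophilic adhesion molecule that was a gate of the sort, so its detection in 99.2% of cells (98.2 to 99.7%) is no finding. Its ln values had a median of 2.27 and a highest value of 3.94, and the values of the middle cells were close together, from a lower quartile of 1.90 to an upper quartile of 2.61.

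The remaining immunoglobulin-like genes differed widely from one another. F11r encodes JAM-A, an adhesion molecule of tight junctions, and was detected in 98.8% of cells (97.6 to 99.5%) with a median ln value of 2.21 and a highest value of 3.73. Esam encodes an endothelial adhesion molecule of tight junctions and was detected in 50.2% (46.3 to 54.1%), with ln values from 0 to 3.34 and only 3.66% of cells above 2. Its highest 10% of cells held 58.3% of its level. Thus Esam was spread over the cells like Cldn11 rather than like F11r.

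Jam3 encodes JAM-C, a partner of JAM-B, and was detected in 34.1% of cells (30.5 to 37.9%), with no cell above 1.73 on the ln scale. Reads of Jam3 may include those of the antisense gene Gm48796, whose exons overlap its exons on the opposite strand, since whether counting used strand was not stated. Jam2 encodes JAM-B and was detected in 18 cells, or 2.74% (1.63 to 4.30%), with ln values from 0.01 through a median of 0.28 to 1.68 in those cells. Of these 18 cells, 17 held Prox1 reads and none held reads of Flt1, Ackr1 or Ptprc, and they came from 9 of the 12 blocks of cell numbers described below. Over all cells Prox1 was detected in 97.1%, Flt1 in 2.44%, Ackr1 in 1.98% and Ptprc in 0.915%, so these counts do not set the 18 cells apart. The share of cells with Jam2 lay close to that of the blood endothelial gene Flt1, 2.44%.

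Tjp1 encodes ZO-1, a scaffold that links junction proteins to actin. It was detected in 80.8% of cells (77.6 to 83.7%) and in 67.6% after thinning, with ln values from 0 through a median of 0.65 to 2.58. The 126 cells without a read had a median of 27440 reads, against 217643 in the others, so its detection moved with depth. Over the 9 genes the median share was 80.8%, against 5.03% over all genes. All of Cldn5, Cdh5, Pecam1 and F11r were found together in 622 cells, or 94.8% (92.8 to 96.4%). The number of the 9 genes in a cell was 5 to 8 in most cells, with 6 in 31.4% and 7 in 28.4%, and only 3 cells held all 9.

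Detection moved with depth for the genes of middle and low level. From the 25% of cells with the fewest reads to the 25% with the most, the share with Tjp1 went from 54.3% to 94.5%, that with Jam3 from 17.1% to 46.3%, that with Cldn11 from 47.0% to 72.6% and that with Esam from 42.1% to 64.6%, while Jam2 went from 1.22% to 4.88%. The mean ln value of Cldn11 did not move in that way, at 0.61 in the shallowest and 0.60 in the deepest 25% of cells, with 0.69 and 0.65 between them. Cldn5 had a mean ln value of 3.28 in the shallowest and 3.37 in the deepest 25%. For Tjp1 and Esam the mean ln value was higher in the deepest 25%. Tjp1 went from 0.60 to 0.78, and Esam from 0.45 to 0.56, with 0.38 and 0.40 between them.

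Levels of different genes were compared on the linear scale as reads per 10000 per kilobase of merged exons. Cldn5 was highest at 24.0, followed by F11r at 3.45, Pecam1 at 1.52, Cdh5 at 1.23, Cldn11 at 1.05, Esam at 0.385, Tjp1 at 0.161, Jam3 at 0.0873 and Jam2 at 0.00432. Cldn5 thus lay 6.96 times above F11r and 22.8 times above Cldn11. The places of Cdh5 and Cldn11 could not be told apart, since Cldn11 came above Cdh5 with coding lengths, and Jam3 likewise came above Tjp1. The other neighbours kept their order with the length of the longest transcript, with coding length and with reads summed over cells.

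Within single cells the claudins kept the same order with few exceptions. Where Cldn11 was detected, Cldn5 was a median of 21.1 times higher per kilobase, with quartiles of 8.38 and 108 and a lowest ratio of 0.589. Cldn11 exceeded Cldn5 per kilobase in 4 cells (0.610%) and exceeded 0.1 times its level in 109 cells (16.6%). Of the summed level per kilobase of 11 claudins, Cldn5 made 95.5% and Cldn11 4.18%. The next was Cldn12, a broadly expressed claudin, at 0.125%.

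The other genes of the junction pathway were described by lists. Of 25 other claudins and claudin-domain genes listed, 10 were analysed here and 15 were not. Cldnd1, a claudin-domain gene, was detected in 52.4% of cells, Cldn12 in 12.5% and Cldn15 in 2.44%, and each of the remaining 7 in at most 1.52%. Cldn5 and Cldn11 were thus the only claudins proper, among those analysed, found in more than 12.5% of cells.

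Of 18 tight junction genes analysed, 8 reached a share of 50% or more. The most frequent were the polarity gene Pard6g, in 94.97%, and the angiomotin-like gene Amotl1, in 77.4%, followed by the scaffold Magi1 in 58.8% and cingulin-like Cgnl1 in 57.5%. Tjp3, which encodes ZO-3, was detected in 0.610%. Ocln, the gene for occludin, was also detected in 0.610%, and Cgn (cingulin) and Pard6b in no cell.

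Adherens junction genes were detected more widely. In this list 8 of 15 genes were found in at least 50% of cells, with a median share of 60.8%. The catenins that bind VE-cadherin had high shares, with 99.4% for Ctnna1, 97.4% for Ctnnb1 and 96.2% for Jup (plakoglobin), but 48.8% for Ctnnd1 (p120-catenin). Nectin2, an immunoglobulin-like adhesion molecule, was detected in 92.8%, and Ptprb, which encodes the endothelial phosphatase VE-PTP, in 88.0%.

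Of 7 other immunoglobulin-like and tetraspan genes, Cd47 was detected in 99.5% of cells, the tetraspanin Cd151 in 98.2% and Icam2 in 77.4%, while Cxadr was detected in 2.13%. Among 4 desmosomal genes only Pkp4 was frequent, at 54.4%, and Dsp (desmoplakin) was detected in no cell. All 10 listed regulators of endothelial junctions of the RAP1 and cerebral cavernous malformation (CCM) pathways were detected, from 16.2% for Rapgef3 to 91.5% for Arhgap29, with a median of 50.5%. Per kilobase, no gene on these lists reached the 3.45 reads per 10000 of F11r, and the highest were Cd151 at 2.22, Pard6g at 1.31 and Cd47 at 1.27.

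**Figure D2:**
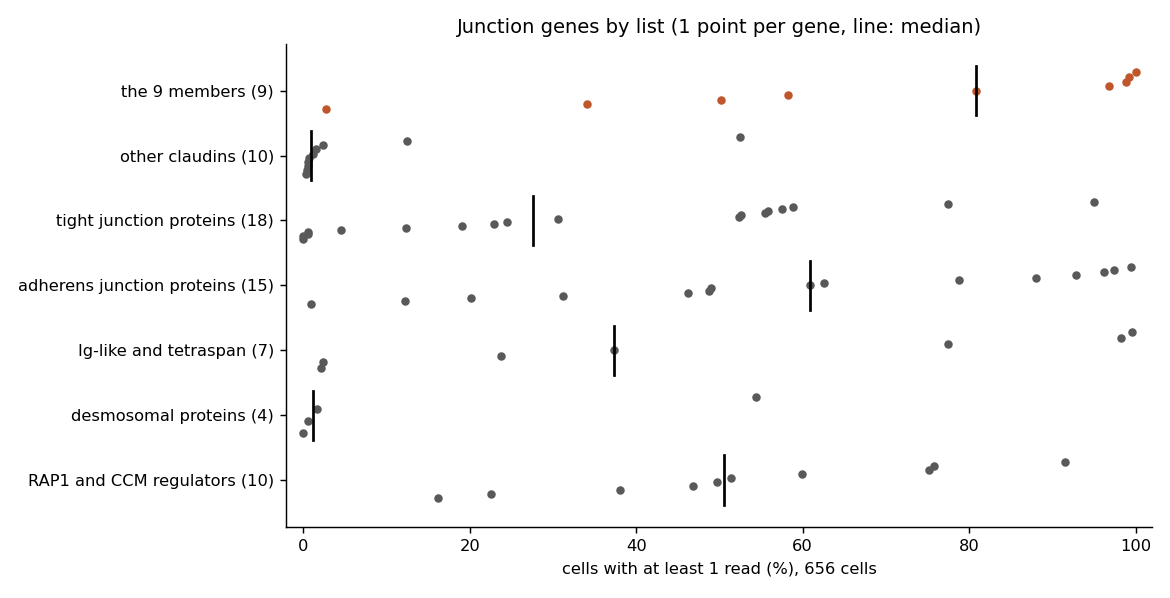
Share of 656 cells with at least 1 read (horizontal axis, %), 1 point per gene and a line at the median, for the 9 junction genes (orange) and 6 lists of other junction genes (grey, with the number of genes analysed). The median was 80.8% for the 9 genes, 0.991% for other claudins and 60.8% for adherens junction genes.

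Cells were then clustered to ask whether the junction genes varied between kinds of LEC. The 9 genes and the listed junction genes were kept out of the genes used for clustering. The cells fell into 5 clusters, which were named only where markers allowed. Cluster 1 (209 cells) was Ptx3+ capillary-like, with all 6 of its markers raised, and was led by Gm525, Gpx3 and Stab2, with the interferon-induced gene Rsad2 also among its first 10 genes. Cluster 2 (172 cells) was precollecting-like, with 4 of 6 markers raised, which were Foxp2, Apoe, Bmp4 and Clu. Itga5 was not raised, nor was Lyve1, which the study used together with Foxp2 for this class. Lyve1 was at 6.675 reads per 10000 in cluster 2, against 14.78 over all cells. The first 10 genes of cluster 2 included the secreted proteins Ahsg, Spp1 and Kng2. Cluster 3 (104 cells) was Ptx3- capillary-like, with 4 of 6 markers raised, which were Fndc1, Gas6, Lyve1 and Piezo2. Nts was not raised, nor was Ptn, which was at 1.39 reads per 10000 in cluster 3 and 3.91 in cluster 4.

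Clusters 4 (97 cells, led by Pthlh, Anxa8 and Ptn) and 5 (74 cells, led by Fxyd2, Gdf15 and Gdf10) stayed unnamed. Cluster 5 had 2 of 7 valve markers raised, the transcription factor gene Gata2 and the netrin receptor gene Neo1, too few for a name. Its first 10 genes also included Lama5, which was on no marker list. The study found laminin-α5, the protein of Lama5, by staining in valves of the plexus. Since the names were rebuilt from markers, a cluster and the class of that name in the study may differ in their cells.

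Of the 8 genes detected in at least 10% of cells, 3 (Cldn11, Esam and Jam3) had a highest cluster mean at least 2-fold above the lowest on the linear scale, where 20.9% of all 9666 genes so detected did. Jam2 was under the detection limit. The 5 others varied by 1.15-fold for Pecam1, 1.28-fold for Cldn5, 1.31-fold for F11r, 1.42-fold for Tjp1 and 1.55-fold for Cdh5, and these folds lay below the median of all such genes, 1.59. Clusters were defined on the same cells, so these differences are descriptions.

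Cldn11 was highest in cluster 5. After thinning it was detected in 72.3% of cluster 5 cells (59.8 to 82.7%), against 48.1% in cluster 2, 48.1% in cluster 4, 36.4% in cluster 3 (26.4 to 47.3%) and 30.3% in cluster 1 (23.7 to 37.7%). Mean levels were 4.90 reads per 10000 in cluster 5 and 1.01 in cluster 3, which was 4.50-fold with 0.1 per 10000 added to both. The order of clusters 1 and 3 could not be told from their intervals, nor that of clusters 2 and 4. No cluster was without Cldn11, and the median ln value of the cells of cluster 5 was 1.31 against 0.15 or 0.18 in clusters 4 and 2.

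Esam had the widest range of the 9 genes. It was detected in 14.6% of thinned cells of cluster 1 (9.77 to 20.7%), in 40.4% of cluster 2, 42.05% of cluster 3, 50.6% of cluster 4 and 64.6% of cluster 5 (51.8 to 76.1%). Mean levels were 0.275 reads per 10000 in cluster 1 and 2.89 in cluster 5, a 7.97-fold range. Esam was low in 1 of the capillary-like clusters, and in the other, cluster 3, it lay close to cluster 2. At a resolution of 1.4, which gave 9 clusters, the ranges widened to 9.61-fold for Cldn11 and 17.5-fold for Esam. How far the ranges of all genes widened there is not given here. Cldn11 then had its highest means in clusters of 46 and 13 cells, at 6.78 and 6.86 reads per 10000, and Esam was high in the larger of these, at 4.05, but not in the smaller, at 0.960.

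The pair of genes was also looked at together in the thinned cells. Both were detected in 46.2% of cluster 5 cells (33.7 to 59.0%) and in 3.93% of cluster 1 cells (1.60 to 7.93%), with 19.2% in cluster 2, 19.3% in cluster 3 and 27.2% in cluster 4. Cells with Cldn11 alone were about as frequent in cluster 1 (26.4%) as in cluster 5 (26.2%). The single shares of Cldn11 and Esam were 72.3% and 64.6% in cluster 5 and 30.3% and 14.6% in cluster 1. The joint share lay close to the product of the single shares in clusters 1, 2 and 5, and somewhat above it in clusters 3 and 4. The joint shares are thus not read as a link between the genes within cells.

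Jam3 followed another order. It was lowest in cluster 3, with 9.09% of thinned cells (4.01 to 17.1%), and was detected in 28.1% of cluster 1 and 28.8% of cluster 2. Its mean levels were 0.0957 reads per 10000 in cluster 3 and 0.367 in cluster 1, a 2.38-fold range. Jam2 was detected in 0 to 3 thinned cells of each cluster. At full depth it was detected in 7 of 74 cells of cluster 5 (9.46%) and in 0 to 3.09% of the cells of each other cluster. With 18 such cells in all, the clusters are not ordered by Jam2.

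The genes found in almost every cell, and Tjp1, found in most, showed small differences between these 5 clusters. Cldn5 was detected in 98.3 to 100% of thinned cells of each cluster, with mean levels from 29.98 reads per 10000 in cluster 3 to 38.4 in cluster 5. Cdh5 went from 4.07 in cluster 4 to 6.35 in cluster 1, and Pecam1 from 8.86 in cluster 3 to 10.2 in cluster 2. F11r was at 8.64 in cluster 1 and 11.4 in cluster 5. Tjp1 was at 0.942 in cluster 3 and 1.38 in cluster 1. At the resolution of 1.4, however, Cdh5 ranged 2.11-fold and Tjp1 2.83-fold.

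**Figure D3:**
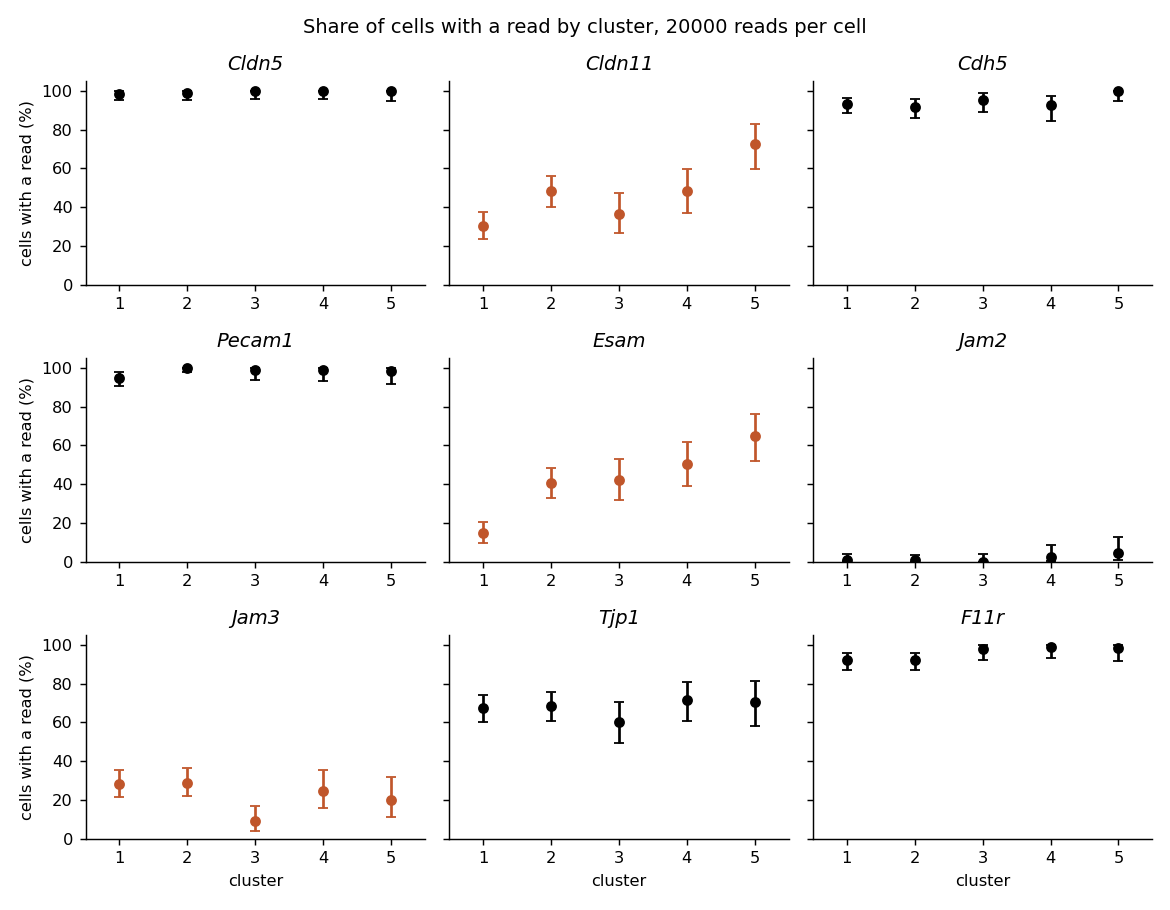
Share of cells with a read (vertical axis, %) in each of 5 clusters (horizontal axis) after thinning to 20000 reads per cell, with exact 95% intervals, for each junction gene. The genes in orange are those with a 2-fold range of cluster means. Cldn11 was found in 30.3% of cluster 1 and 72.3% of cluster 5 and Esam in 14.6% and 64.6%, while Jam3 was lowest in cluster 3.

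The listed junction genes reached a 2-fold range over the clusters about as often as other genes, with 10 of 45 (22.2%) against the 20.9% of all genes. They were 3 of 13 tight junction genes (Cgnl1, Lsr and Magi1), 2 of 14 adherens junction genes (Cdh13 and Ptprb), Mcam among 5 immunoglobulin-like and tetraspan genes, 4 of 10 RAP1 and CCM genes (Heg1, Radil, Rap1a and Rapgef3), and none of 2 claudins and 1 desmosomal gene. Lsr, which encodes the tricellular junction protein angulin-1, was at 0.0284 reads per 10000 in cluster 1 and at 0.575 and 0.566 in clusters 2 and 4. Mcam, the adhesion molecule CD146, was at 0.593 and 0.645 in clusters 2 and 4, and lowest in clusters 5 and 1, at 0.0553 and 0.0837. Ptprb was highest in cluster 5, at 3.67, and Magi1 in cluster 1, at 1.04.

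The cells carry numbers in their labels, and blocks of 96 consecutive numbers were compared as a check, although no label calls them plates. The 12 blocks held 18 to 83 analysed cells. Mean ln values over the blocks ran from 2.81 to 3.62 for Cldn5, 1.40 to 1.77 for Cdh5, 2.05 to 2.30 for Pecam1, 1.87 to 2.23 for F11r and 0.54 to 0.85 for Tjp1. Cldn11 ran from 0.16, in the smallest block, to 0.86, and its share from 43.9% to 69.6%. Median reads per cell also differed between blocks, from 52583 to 2450279: the block with the mean of 0.16 was the deepest, and the lowest Cldn11 shares, 43.9% and 44.4%, were in the blocks with the fewest reads per cell, 53884 and 52583. For Esam the range was 0.30 to 0.70 and for Jam3 0.12 to 0.30. Apart from Jam2, the blocks differed most, relative to the mean, in Cldn11, Esam and Jam3.

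Each cluster had cells in all 12 blocks, with at most 16.3% of a cluster in 1 block. The thinned share of cells with Cldn11 was higher in cluster 5 than in the other cells of the same block in 9 of the 9 blocks with at least 4 cells of that cluster, and so was that of Esam. Esam was lower in cluster 1 than in the rest in 12 of 12 blocks, and Jam3 lower in cluster 3 in 7 of 7. Some of these differences were very small. Esam was at 26.67% in cluster 1 and 26.92% in the rest of block 6, and Jam3 at 33.33% in cluster 3 and 34.04% in the rest of block 7. The clusters counted were those highest or lowest for the gene in these same cells. The counts thus describe the spread over blocks and are no separate check. How often other genes gave such counts is not given here.

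**Figure D4:**
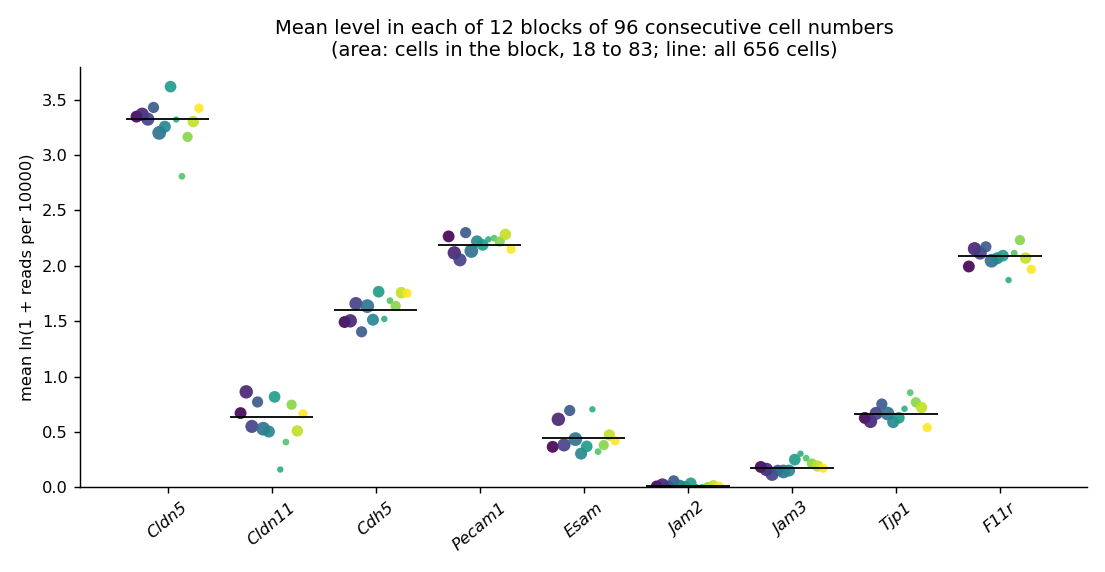
Mean ln(1 + reads per 10000) of each junction gene (vertical axis) in each of 12 blocks of 96 consecutive cell numbers, drawn from left to right in order of number, with point area for the number of cells (18 to 83) and a line for the mean over 656 cells. Cldn5 lay between 2.81 and 3.62 in every block, above all other genes, and the lowest point of Cldn11, 0.16, was the block with the fewest cells.

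The second question was whether Cldn11 went with other valve markers within cells. Valve LECs form the leaflets that keep lymph flowing one way. The markers were Foxc2 and Nfatc1, transcription factors of valve formation, Gata2, the integrin gene Itga9, the connexin genes Gja4 and Gja1, and Neo1. Thinned cells were grouped by how many of these 7 genes had a read, with 0 and 1 joined after the data were seen. The number is a range and not a cell type.

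Cldn11 was detected in 27.8% (16.5 to 41.6%) of 54 cells with 0 or 1 marker, 42.1% (33.9 to 50.5%) of 145 cells with 2, 44.6% (37.4 to 51.9%) of 193 cells with 3 and 48.3% (40.7 to 55.9%) of 176 cells with 4 or more. The difference between the ends was 20.5 percentage points. Mean levels at the ends were 1.06 and 2.75 reads per 10000, or 2.47-fold with 0.1 per 10000 added. Of the 9 junction genes Cldn11 was the only one at or above 2-fold, as were 7.07% of the 7752 genes detected in at least 10% of the thinned cells.

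The number of genes detected in a cell moved with the number of valve markers, from a median of 2440 with 0 or 1 marker to 3096 with 4 or more, at equal reads. Shares of other junction genes moved likewise, by 19.4 points for F11r, 16.8 for Esam and 14.5 for Cdh5, against a median of 9.36 points over all genes. Levels at the ends differed by 1.67-fold for Cldn5, 1.46-fold for F11r, 1.36-fold for Esam and 0.968-fold for Cdh5, with a median of 1.08 over all genes. The part of the number of detected genes in the Cldn11 difference was not tested.

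The Cldn11 difference depended on how the markers were counted, and each way of counting also regrouped the cells. With reads at full depth it was 25.2 points. With Gja4 and Gja1 left off the list, Cldn11 was detected in 41.1% (35.1 to 47.3%) of 263 cells with 0 or 1 marker and 43.8% (19.8 to 70.1%) of 16 cells with 4 or more, a difference of 2.69 points. With 2 reads required for a marker, the shares were 41.4% (32.3 to 50.9%) and 46.8% (35.5 to 58.4%), a difference of 5.46 points.

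**Figure D5:**
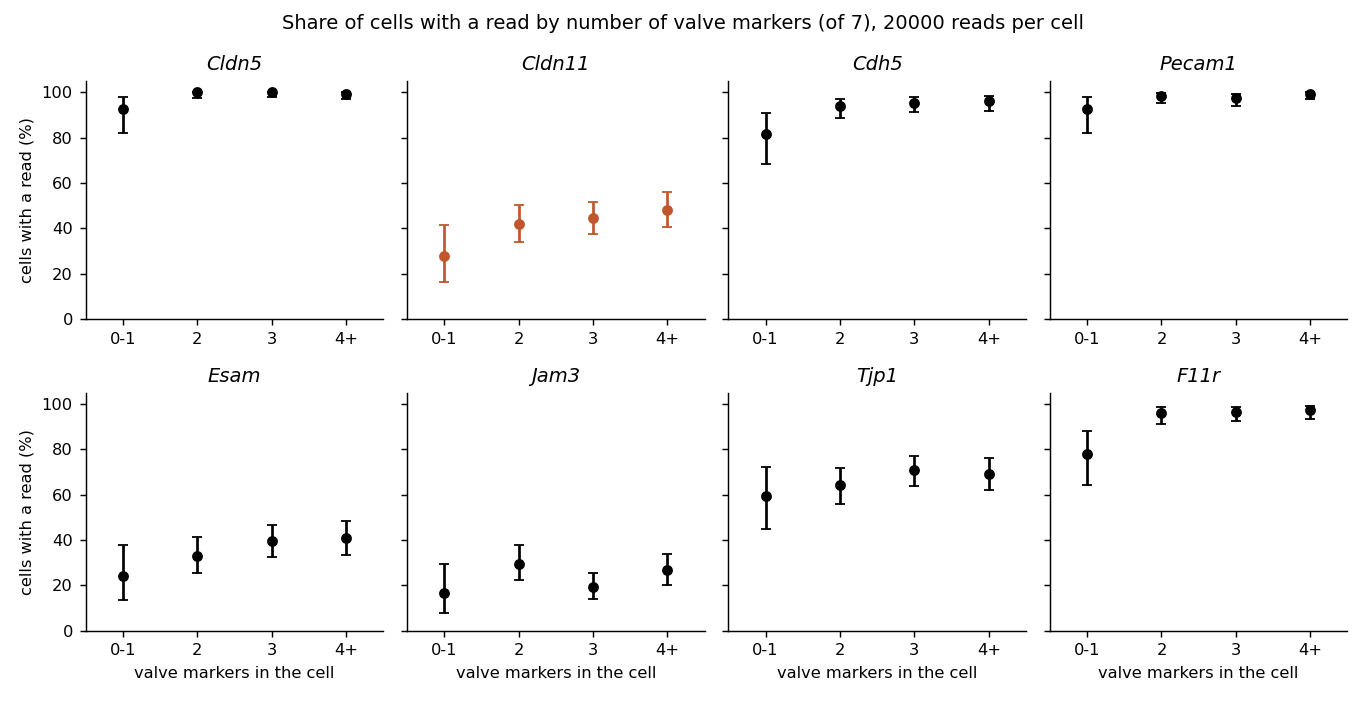
Share of thinned cells with a read (vertical axis, %) by the number of 7 valve markers found in the cell (horizontal axis), with exact 95% intervals, for 8 junction genes. Cldn11 (orange) went from 27.8% to 48.3%, and F11r, Esam and Cdh5 also had their lowest share in the cells with 0 or 1 marker.

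By single markers, Cldn11 was detected in 51.4% (44.98 to 57.8%) of cells with a Gja4 read and 37.5% (32.2 to 43.0%) of those without, and in 58.3% (43.2 to 72.4%) against 42.1% (37.8 to 46.5%) for Neo1. For Foxc2 the shares were 52.8% (38.6 to 66.7%) and 42.5% (38.2 to 46.9%), and for Gata2 47.8% (39.8 to 55.8%) and 41.8% (37.0 to 46.8%). The intervals overlapped for Neo1, Foxc2 and Gata2, and for Gja4 they did not. Since these intervals cover counting error only, the difference for Gja4 is a description and not a test. How often other genes differed as much with Gja4 is not given here. Itga9 and Nfatc1 gave almost equal shares with and without the marker, 43.6% and 43.2% for Itga9 and 43.8% and 43.1% for Nfatc1. Gja1 went the other way, at 42.4% with it and 50.6% without it, with overlapping intervals.

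Gja4 encodes connexin-37 and was used in the study to part the downstream from the upstream side of valves. Of the thinned cells, 22.2% held reads of both Cldn11 and Gja4, 21.3% held Cldn11 without Gja4, 21.0% Gja4 without Cldn11 and 35.6% neither. By cluster the 2 genes did not go together: the mean level of Gja4 was highest in cluster 2, at 3.38 reads per 10000. It was lowest in cluster 5, at 0.959, where Cldn11 was highest.

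Finally, genes were ranked by how closely their ln values followed each junction gene over the cells, as Spearman rho among the 9666 genes detected in at least 10% of cells. These are correlations between cells of 1 pool that differ in depth, and all were weak, so they are given as a description. For Cldn11 the highest was Cd24a, a small glycoprotein of the cell surface, at 0.29, followed by Sdc4 (syndecan-4) at 0.27, Rnf125, a ubiquitin ligase gene, at 0.24, the magnesium transporter gene Slc41a1 and Plekhb1 both at 0.23, Cdh13 (T-cadherin), H2-T23 and Pdlim4 all at 0.21, and Sbspon and Nts (neurotensin) both at 0.20. Over 9665 genes the median rho with Cldn11 was 0.03, and the 5th and 95th percentiles were -0.04 and 0.11.

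The lowest values were -0.23 for Nrp2, a co-receptor for VEGF-C, -0.21 for the matrix gene Sparc, -0.20 for Flt4, which encodes the VEGF-C receptor VEGFR3, -0.19 for the water channel gene Aqp1 and -0.18 for Igfbp4. Of the 10 genes highest with Cldn11, 9 remained among the first 10 with ranks adjusted for reads and detected genes, and 6 with thinned reads.

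Esam followed Cd9, a tetraspanin gene, most closely, at 0.33, then the caveolin gene Cav1 and the vimentin gene Vim, both at 0.29. Cldn5 was highest with Ramp2, part of the adrenomedullin receptor, at 0.25, and with Rabac1 at 0.23 and Cd9 at 0.22. Cdh5 was highest with the LEC genes Mmrn1 and Stab1, both at 0.24, and with Marcks at 0.23. Jam3 was highest with Tmem176b at 0.26, Srgn at 0.21 and Sparc at 0.20. F11r was highest with Thbd (thrombomodulin) and Actb, both at 0.20, and Erh at 0.19. For Pecam1 and Tjp1 no gene passed 0.19, and the 3 highest were Itga6, Cav1 and Mrps21 for Pecam1 and Gm5844, 2510039O18Rik and Pspc1 for Tjp1.

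Among the junction genes themselves the correlations were smaller still. The median over the 36 pairs was 0.036, the same as over all pairs of genes so detected. The highest were Cldn11 with Esam and Cldn11 with Cldn5, both at 0.16, and the lowest was Cdh5 with Esam at -0.10. In sparse reads such weak values are not read as a relation.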

How the data were processed

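Single LECs had been sorted into plates and sequenced by Smart-seq3. The submitters' processing notes and methods name mm10, STAR, featureCounts (Subread) and Seurat 4.1.0, and cells with under 2000 genes or over 10% mitochondrial reads were discarded. The handling of strand and of reads that map to several genes is not given in the sources used here. The authors deposited 1 table of natural log values, ln(1 + reads per 10000): the methods name log2, but only with base e did the values, taken back to the linear scale, sum to 10000 in each cell. On the linear scale 100% of values above 0 were whole reads within 0.01. These are reads, with PCR copies not collapsed.

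The 9 genes and the gene lists were chosen with earlier results of these data known. With 1 pooled sample no test was run. Shares were also computed after thinning to 20000 reads per cell without replacement (568 of 656 cells). Gene lengths and positions were taken from GENCODE M21. Clustering in Seurat 5.3.0 (R 4.3.3) used 2000 variable genes without the junction genes, regression of reads, mitochondrial share and dissociation and ribosomal scores, 15 principal components and the lowest resolution (0.7) that gave at least 5 clusters. A marker counted as raised in a cluster at 1.5 times the mean of the other cells, with 0.1 per 10000 added and a read in 10% or more of its cells, and a name needed 3 or more such markers. Both limits were chosen with the data in view. Folds between clusters used linear means plus 0.1 per 10000, over genes in at least 10% of cells. No doublet caller was run, since wells had received single cells, and 4 cells with reads of both Xist and a Y-linked gene were left out as an alternative, a weak check since no other cell held a Y-linked read. Read recovery, thinning, folds, correlations and clustering were tested on simulated data. Named genes were the 9 junction genes, the 10 highest and 5 lowest in rho with Cldn11, the 3 highest with each other gene, the pathway lists and the marker lists; genes that lead a cluster were named as well. Statistics used scipy 1.17.1.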

Additional observations from a re-analysis of the deposited data

How the results depend on the processing

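The cells were 1 pooled sample, so no value carries the differences between mice, and detection depended on depth. The median share of cells over the 9 junction genes, 80.8%, became 30.6% with detection set at an ln value above 1, 67.6% after thinning and 89.6% when the 25% of cells lowest in detected genes were left out. For Cldn11, 58.2% became 30.6%, 43.5% and 63.6% in the same order. Leaving out each block of cell numbers in turn gave 79.4 to 82.6% and 56.7 to 59.7%. The median of the mean ln values, 0.661, became 1.09 as the log of the linear mean. With the resolution doubled to 1.4, the range over clusters went from 4.50-fold to 9.61-fold for Cldn11 and from 7.97-fold to 17.5-fold for Esam. The junction genes with a 2-fold range went from 3 to 5, then taking in Cdh5 at 2.11-fold and Tjp1 at 2.83-fold. The share of all genes with a 2-fold range is given for the main clusters only, so the count of 5 has no background. Under the other cluster settings 3 junction genes had a 2-fold range, with 3.59-fold to 6.39-fold for Cldn11 and at least 7.14-fold for Esam. The Cldn11 difference by valve markers, 20.5 points, became 2.69 without Gja4 and Gja1 and 5.46 with 2 reads for a marker. With ranks adjusted for reads and detected genes, the median rho of Cldn11 with the other 8 genes went from 0.0676 to 0.0421 and that among those 8 from 0.029 to 0.0132. Leaving out cells with a Ptprc read was chosen after seeing the data. Causes were not tested. No paired analysis was possible because all cells belonged to 1 group.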
